A study of Mus musculus with 8 samples.

Results

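Pax6 binding was examined at 10 genes that stand for the islet hormones and secreted proteins other than glucagon and insulin. They were Ttr, Sst, Hhex, Ppy, Pyy, Ghrl, Rbp4, Gc, Dpp4 and Fap, and their sites were the rows of the authors' deposited table that carried one of these gene symbols. Of the 26244 sites in that table, 11 met the rule. They were spread over 7 genes, with 3 sites at Ttr, 2 each at Rbp4 and Dpp4, and 1 each at Sst, Hhex, Pyy and Ghrl. Ppy, Gc and Fap had no site. The name of the group holds only in part, since Hhex encodes a nuclear transcription factor, and Dpp4 and Fap encode peptidases anchored in the cell membrane.

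The cells were alphaTC1, a line of glucagon-producing cells that came from a mouse pancreatic tumour, so all libraries share 1 cell line and no other islet cell type was sampled. They received antisense oligonucleotides carrying a scrambled sequence (control knockdown, control KD) or oligonucleotides directed at Paupar (Paupar KD), the long non-coding RNA made beside Pax6. Pax6 was then immunoprecipitated and the bound DNA sequenced (ChIP-seq) in 2 libraries per group, which the submitters call biological duplicates. The question was whether Pax6 occupancy differed after loss of Paupar. The labels give no oligonucleotide dose or time, and ChIP does not measure whether any of these genes was transcribed.

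Pax6 is a transcription factor with a paired domain and a homeodomain that islet endocrine cells need in order to form and to make their hormones. The genes of the group mark different islet cells. Sst (somatostatin), Hhex and Rbp4 mark delta cells, Ppy (pancreatic polypeptide) and Pyy (peptide YY) mark PP cells, Ghrl (ghrelin) marks epsilon cells, and Ttr (transthyretin) and Gc (vitamin D-binding protein) are abundant in alpha cells. Dpp4 and Fap encode related dipeptidyl peptidases, and DPP4 inactivates the incretin hormones. Both lie on either side of the glucagon gene, Gcg, on mouse chromosome 2.

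The deposited table gave 1 concentration per group and site, the authors' mean over 2 libraries, read as log2 of a normalised read count in a window of 100 bp, and no value per library. Log2 changes are Paupar KD minus control KD. A false discovery rate (FDR) below 0.05 was taken as a call. None of the 11 sites passed it in either direction per the authors' deposited table, where 3.26% of all sites were called higher and 0.846% lower. The Ghrl site and the weaker Rbp4 site were read as standing outside the authors' adjustment, in which case they could not pass. At an unadjusted p below 0.05, 2 of the 11 sites were higher, at Hhex and Sst, and 0 were lower, against 10.7% and 6.67% of all sites per the authors' deposited table. The median log2 change over the 11 sites was 0.46, with 9 above 0 and 2 below. Over all sites of the authors' deposited table the median was -0.03, with 48.5% above 0 and 51.1% below. In that table the change ran with signal strength, from a median of 0.72 in the weakest quartile of mean concentration to -0.36 in the strongest. Of the 11 sites, 4 lay in the weakest quartile and 1, at Hhex, in the strongest. With each site centred on the median of its own quartile, the median over the 11 sites was 0.58.

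**Figure D1:**
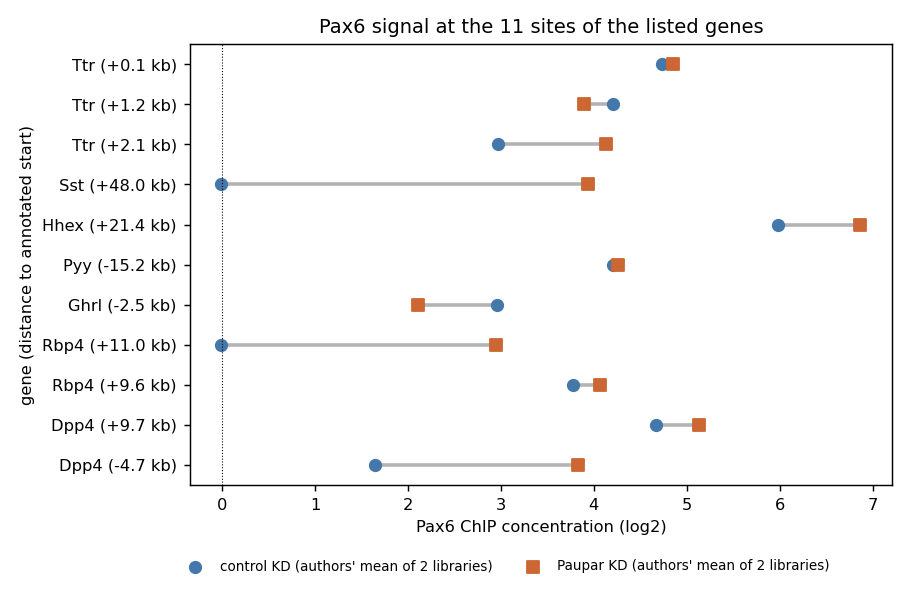
Pax6 ChIP concentration (log2, horizontal axis) at each of the 11 sites in control KD (circles) and Paupar KD (squares); each symbol is the authors' mean of 2 libraries, so no error bar can be drawn, and labels give the distance to the annotated start. The Hhex site is the strongest in both groups, at 5.98 and 6.87, and of the sites with the longest bars those at Sst and Rbp4 start at the floor in control KD and that at Dpp4 starts at 1.64.

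Hhex encodes a homeodomain repressor that maintains delta-cell identity. Its single site (chromosome 19, 37458176 to 37458275, mm10) lay in intergenic sequence 21.4 kb beyond the annotated start and downstream of the gene. Concentrations there were 5.98 under control KD against 6.87 under Paupar KD, a log2 change of 0.89 (p = 0.00726, FDR 0.101) per the authors' deposited table. With a mean concentration of 6.49 it stood at the 93.0 percentile of all sites per the authors' deposited table. A peak summit lay within 250 bp of its middle in all 4 libraries, as at 20.0% of all sites. That of control KD replicate 2 was 228 bp away, near the limit of the match, and the others were within 90 bp. The summit scores, the authors' values read as −log10 of a q-value, were 50.4 and 17.7 in control KD replicates 1 and 2, and 60.2 and 110.2 in Paupar KD replicates 1 and 2. These summits ranked in the top 8.48% and 23.5% of their own control KD lists and in the top 5.01% and 1.81% of the Paupar KD lists, where lists of unequal length permit no comparison of ranks. No other site of the group ranked as high in any of the 4 lists. A site 80.1 kb beyond the Hhex 5′ end, assigned to the exocyst gene Exoc6, also had a summit in all 4 libraries, with concentrations of 5.06 and 5.82 (FDR 0.355) per the authors' deposited table.

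Sst encodes somatostatin, the delta-cell hormone that restrains glucagon and insulin release. Its single site (chromosome 16, 23842841 to 23842940) was intergenic and 48.0 kb beyond the annotated start, on the downstream side. The control KD value (-0.01) was the floor of the table, against 3.94 after Paupar KD (p = 0.00798, FDR 0.106) per the authors' deposited table, so the size of the difference is set by the floor. In all, 522 sites, or 1.99%, had this floor value for control KD per the authors' deposited table. No library had a summit within 250 bp of the Sst site, which holds for 3.56% of all sites. The nearest in Paupar KD replicate 1 was 284 bp away, with a score of 14.3, whereas the nearest in Paupar KD replicate 2 was over 140 kb off, at 140592 bp. The signal thus had a summit beside it in 1 of 4 libraries. Within 100 kb of the Sst 5′ end the table held 1 further site, at 92.1 kb upstream and assigned to Bcl6, with 4.82 and 5.09 (FDR 0.856) per the authors' deposited table.

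Stretches of the Sst promoter are shown because the table placed no site near them. On the minus strand of chromosome 16 (GRCm38.p6, the assembly behind mm10; sequences from RefSeq), capitals mark TAAT, the core letters that homeodomains read, and TGACGTCA, the cyclic AMP response element for which this promoter is known. The first stretch is chr16:23890923-23890952 and the second chr16:23890874-23890903, with the element ending 40 bases before the RefSeq start.
Sst TAAT: gattttgcgaggcTAATggtgcgtaaaagc
Sst TGACGTCA: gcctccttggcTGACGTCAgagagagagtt
No summit of any of the 4 libraries lay within 250 bp of the 250 bases before this start. The nearest site of the table was 47.95 kb from these bases. This start lies downstream of the authors' annotated start (23890958) and of the 5′ end of the whole gene in RefSeq (23891342), from which the 100 kb were measured. By those 2 limits both stretches are inside the gene.

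Promoters were then compared with that of Gcg, the neighbour of Dpp4 and Fap. Each of the 4 libraries had a summit within 250 bp of the 250 bases before the Gcg start. The summit of Paupar KD replicate 1 (62483795) lay inside these bases. The others, at 62483604 to 62483614, lay just past the start. The 250 bases before the start are printed 5′ to 3′ on the minus strand from RefSeq (GRCm38.p6), with TAAT or its reverse complement in capitals, for Gcg (chr2:62483654-62483903), for Gc (chr5:89457899-89458148) and for Pyy (chr11:102107833-102108082). Gc and Pyy were chosen as a gene with these letters and no site, and a gene with a site and none of these letters. The Pyy site lay 15.3 kb from the printed bases. No summit of any library lay within 250 bp of the Gc or the Pyy stretch.
Gcg: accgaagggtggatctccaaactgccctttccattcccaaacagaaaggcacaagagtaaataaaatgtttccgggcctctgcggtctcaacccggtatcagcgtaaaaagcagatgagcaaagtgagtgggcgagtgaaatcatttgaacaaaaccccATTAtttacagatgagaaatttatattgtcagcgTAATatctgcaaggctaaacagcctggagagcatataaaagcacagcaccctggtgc
Gc: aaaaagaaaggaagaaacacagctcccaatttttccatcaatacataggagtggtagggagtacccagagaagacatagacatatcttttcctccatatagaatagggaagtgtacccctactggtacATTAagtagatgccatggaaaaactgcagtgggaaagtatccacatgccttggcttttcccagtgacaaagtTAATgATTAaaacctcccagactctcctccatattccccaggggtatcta
Pyy: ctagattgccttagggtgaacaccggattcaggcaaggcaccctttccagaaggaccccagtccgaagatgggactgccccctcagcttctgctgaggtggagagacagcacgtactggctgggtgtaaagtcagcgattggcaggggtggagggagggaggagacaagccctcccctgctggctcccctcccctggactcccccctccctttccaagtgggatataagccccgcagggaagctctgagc
The Gcg stretch held 2 matches to TAAT, the Gc stretch 3 and the Pyy stretch 0. The letters are common, since 54.9% of 32851 promoter windows of this length in the RefSeq table held TAAT on either strand, and 1.55% held TGACGTCA. RefSeq windows were at hand for 8 of the 10 genes (13 windows, several genes having more than 1 start) and not for Ttr and Fap, so the Ttr promoter, where a site lay, is not in these counts. TAAT was found in windows of 4 of the 8, Sst, Gc, Rbp4 and Dpp4, and TGACGTCA in that of Sst. The core of the paired-domain site, TTCACGC, and P3, the palindrome that homeodomain dimers bind, had 0 matches in the 13 windows on either strand and were present in 1.03% and 0.463% of all windows. A match is a run of letters and not a measured site.

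Ttr encodes transthyretin, a carrier of thyroxine and, with RBP4, of retinol. Its 3 sites lay inside the gene, all classed as promoter. The first (chromosome 18, 20665385 to 20665484) lay 105 bp past the annotated start, with 4.73 (control KD) against 4.85 (Paupar KD, FDR 0.943) per the authors' deposited table. It was the only other site of the group with a summit in all 4 libraries. The scores were 12.0 and 8.7 in control KD and 10.7 and 13.9 in Paupar KD, and the summits lay within 42 bp of the site's middle. They stood near the middle of their lists, in the top 46.8%, 51.0%, 46.6% and 34.2%. This site was also the only one of the 11 within 1 kb of an annotated start.

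The second Ttr site, 1.22 kb past the start (20666504 to 20666603), had 4.20 and 3.89 (FDR 0.877) per the authors' deposited table, with its only summit in Paupar KD replicate 2 (score 5.9). At the third, 2.06 kb past the start (20667343 to 20667442), values of 2.97 and 4.13 were listed (log2 change 1.16, FDR 0.558) per the authors' deposited table. Both Paupar KD libraries had a summit there and neither control KD library did, but the scores of 2.6 and 3.0 ranked among the last 5% or so of their lists (top 97.5% and 95.0%). These summits lay 40 bp from the middle in Paupar KD replicate 1 and 202 bp from it in replicate 2. The latter would be lost with a match within 100 bp. A stronger site stood 23.4 kb upstream of the RefSeq 5′ end of Ttr, assigned to the predicted gene Gm16090. It had 5.47 and 6.65 (log2 change 1.17, FDR 0.0835) per the authors' deposited table, with a summit in all 4 libraries. Within 100 kb of Ttr the table held 11 sites, of which 8 carried another symbol.

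Rbp4 encodes the plasma retinol-binding protein, which travels in a complex with transthyretin. Both of its sites were downstream of the gene. The nearer (chromosome 19, 38115112 to 38115211), 9.60 kb past the annotated start, had 3.77 and 4.07 (FDR 0.892) per the authors' deposited table. Summits were present in control KD replicate 1 and in Paupar KD replicates 1 and 2, in the top 55.7%, 64.2% and 59.2% of their lists. The other (38113714 to 38113813) was annotated to exon 3 of the neighbouring gene Ffar4, a fatty acid receptor gene, although its nearest start was that of Rbp4. Here too the control KD value (-0.01) was the floor, against 2.95 after Paupar KD (p = 0.0643) per the authors' deposited table, and its only summit was in Paupar KD replicate 2 (score 5.2). This site and the Ghrl site had a deposited FDR of 1.0. They were among 1010 sites with that FDR and a p below 0.99, which were read as standing outside the authors' adjustment.

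The stronger binding around Rbp4 carried other symbols. On the upstream side 4 sites were assigned to Pde6c, a cone phosphodiesterase gene, at distances of 6.81 to 49.0 kb from the Rbp4 5′ end. The one at 30.1 kb (38155333 to 38155432), in a Pde6c intron, had 8.67 and 8.21 (FDR 0.233) per the authors' deposited table, the highest mean concentration of the 56 sites found within 100 kb of the listed genes. It had a summit in all 4 libraries. The nearest, at 6.81 kb, had 3.57 and 5.27 (log2 change 1.70, FDR 0.137) per the authors' deposited table, with summits in both Paupar KD replicates but neither control KD replicate. On the other side, 3 sites between 33.4 and 47.3 kb from the Rbp4 5′ end were assigned to Ffar4, each with a summit in all 4 libraries and FDRs of 0.784 to 0.970 per the authors' deposited table.

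**Figure D2:**
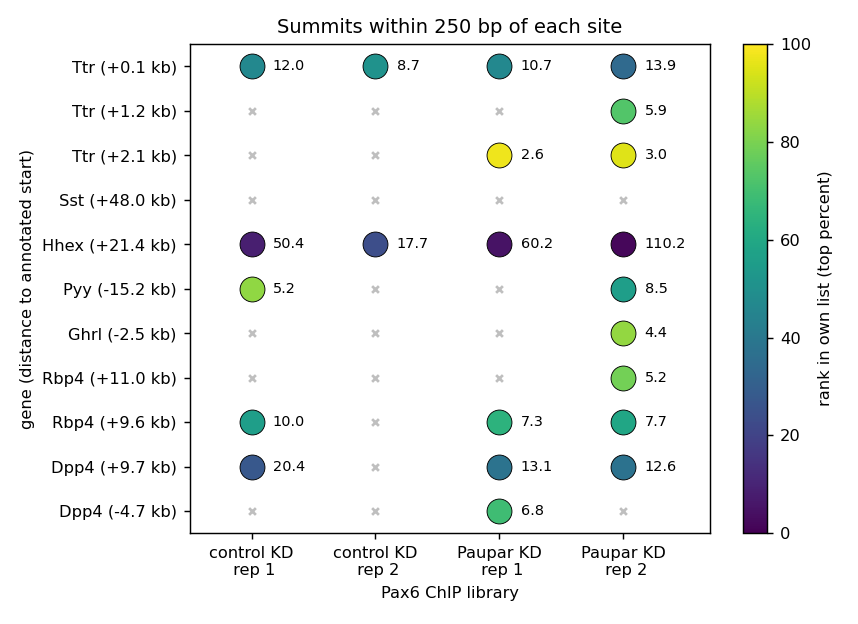
Peak summits within 250 bp of the middle of each of the 11 sites (rows) in each Pax6 ChIP library (columns); circles mark a summit, with its score beside it and its rank in its own list as colour (darker is nearer the top), and crosses mark none. The Ttr promoter site and the Hhex site are the rows filled in all 4 libraries, and the Sst row is empty.

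Ppy and Pyy, which encode the PP-cell hormones and are sister genes of the neuropeptide Y family, lie next to each other on chromosome 11. Ppy had no site. The Pyy site (102123079 to 102123178), 15.2 kb upstream in intergenic sequence, had 4.21 and 4.26 (FDR 0.980) per the authors' deposited table. It had a summit in control KD replicate 1 (score 5.2) and in Paupar KD replicate 2 (8.5), 1 library of each group. In the region within 100 kb of Ppy the table held 12 sites, all given to other genes. The nearest to the Ppy 5′ end, 13.4 kb away at an Mpp2 promoter, had 4.89 and 4.84 (FDR 0.978) per the authors' deposited table. The 1 called site of the region, at the promoter of the scaffold gene Mpp3, 91.0 kb from Ppy and 97.5 kb from Pyy, was lower after Paupar KD, with 7.48 and 6.59 (log2 change -0.89, FDR 0.0453) per the authors' deposited table.

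The Ghrl site (chromosome 6, 113722332 to 113722431), 2.45 kb upstream of the annotated start, gave 2.96 for control KD against 2.11 for Paupar KD (p = 0.523) per the authors' deposited table. It was the lowest site in Paupar KD and stood at the 3.5 percentile of mean concentration. Its only summit was in Paupar KD replicate 2 (score 4.4), the group with the lower concentration. The sites around it were stronger, among them that at the promoter of Sec13, 20.8 kb upstream of Ghrl, with 6.21 and 5.43 (FDR 0.274) per the authors' deposited table and a summit in all 4 libraries.

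**Figure D3:**
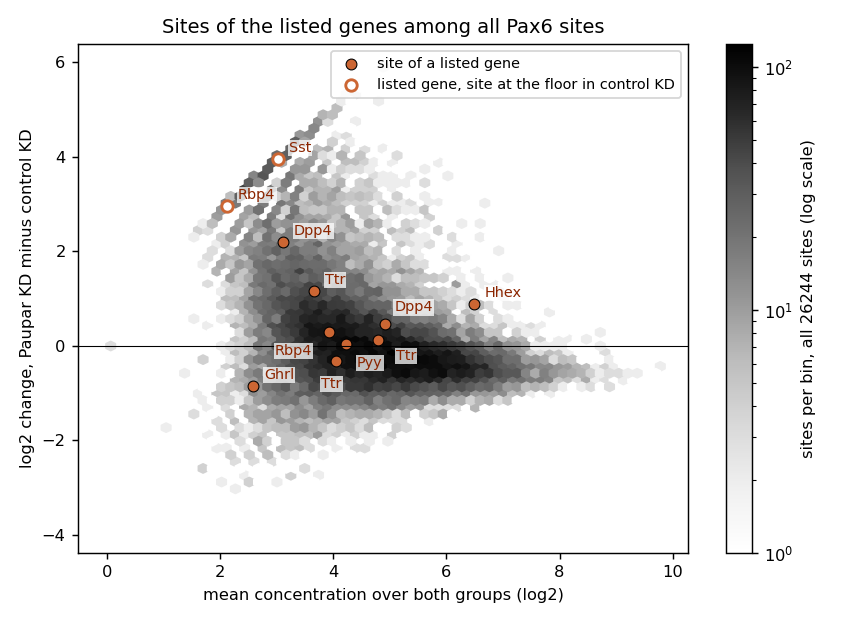
Log2 change (Paupar KD minus control KD, vertical axis) against mean concentration (log2, horizontal axis) for all 26244 sites (grey, darker where more sites fall in a bin) with the 11 sites as points; open points had the floor value for control KD. The Hhex point, at 6.49 and 0.89, lies on the upper side of the strong sites, whose quartile has a median of -0.36, and the open Sst and Rbp4 points lie on the diagonal line that the floor draws.

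DPP4 is a membrane peptidase that removes an N-terminal dipeptide from incretins and other hormones. Its 2 sites were in introns. The first (chromosome 2, 62368493 to 62368592) gave 4.67 for control KD against 5.13 for Paupar KD (FDR 0.720) per the authors' deposited table. Summits were found in control KD replicate 1 (score 20.4) and in Paupar KD replicates 1 and 2 (13.1 and 12.6), all within 38 bp of the middle. The second (62382911 to 62383010) had 1.64 and 3.83 (log2 change 2.19, p = 0.0612, FDR 0.318) per the authors' deposited table, with its only summit in Paupar KD replicate 1 (score 6.8). The table gave the second site as 4.66 kb upstream of a start, which is that of a short inner transcript. Measured from the 5′ end of the whole gene in RefSeq, both sites were inside Dpp4, at 43.8 and 29.4 kb.

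Fap, whose enzyme cleaves after proline and is best known from activated fibroblasts, had no site. The nearest to either end of the gene, 15.8 kb away, was assigned to Gcg. The interval between Dpp4 and Fap held 5 sites, all of them assigned to Gcg. Of these, 3 were called higher after Paupar KD and 0 lower, against 3.26% and 0.846% of all sites, per the authors' deposited table. The site nearest to Fap (62485081 to 62485180) had 2.53 and 6.90 (FDR 0.0317) per the authors' deposited table, with summits in both Paupar KD replicates but neither control KD replicate. The table assigns each site to 1 gene, so these 5 sites do not count for Dpp4 or Fap, and whether they act on either was not measured.

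Gc, which encodes the vitamin D carrier of plasma, stood apart from the other genes. Neither a site of the table nor a summit of any of the 4 libraries lay within 100 kb of its 5′ end. The nearest site was 239.6 kb away and assigned to another gene. The nearest summits were 528.2 and 873.7 kb away in control KD replicates 1 and 2, and 239.6 kb away in both Paupar KD replicates. Such gaps are common, as 27.9% of 17492 protein-coding genes with a RefSeq start had no site within 100 kb. The median over these genes was 2 sites, and 7.57% had 11 or more, a range that holds Ttr and Rbp4 with 11 and Ppy and Pyy with 12. Hhex had 5 sites in that window, Ghrl and Dpp4 7 each, and Sst 2. The 12 sites of Ppy and those of Pyy are the same ones, as these genes lie next to each other.

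**Figure D4:**
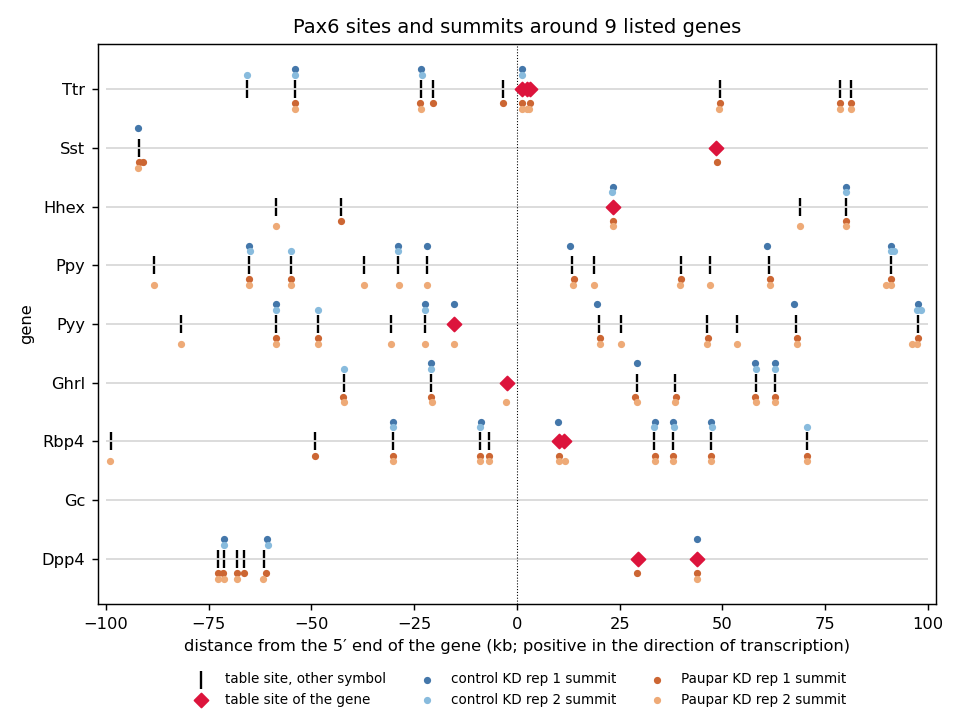
Sites of the table (diamonds for the gene itself, ticks for sites given to other genes) and summits of each library (dots, control KD above and Paupar KD below the line) within 100 kb of the 5′ end of 9 genes; the axis is distance in kb, positive in the direction of transcription. Fap is left out because its strand was not in the tables used. The Gc row is empty, and the 5 ticks at 61.6 to 72.8 kb upstream of Dpp4 are the Gcg sites.

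Summit support differed between libraries. Of the 11 sites, 5 and 2 had a summit in control KD replicates 1 and 2, and 6 and 9 in Paupar KD replicates 1 and 2. Over all sites of the table the shares were 49.9% and 34.9% in control KD and 54.4% and 63.1% in Paupar KD, and the lists held 14311, 9983, 15611 and 17942 summits. A summit in Paupar KD and none in control KD was found at 5 of the 11 sites, in 1 Paupar KD library at 4 (29.5% of all sites) and in both at 1 (8.25%). The reverse pattern was found at 0 of the 11 sites (14.4% and 1.47% of all sites). With all 4 lists held to the strongest 9983 summits, these counts were 0 and 1, so none of the 5 sites had a summit among the strongest 9983 of a Paupar KD list. Within 100 kb of the 10 genes control KD replicates 1 and 2 had 25 and 23 summits, and Paupar KD replicates 1 and 2 had 44 and 48. The whole lists were likewise shorter in both control KD libraries than in either Paupar KD library. As shares of each list the summits near these genes were 0.175% and 0.230% against 0.282% and 0.268%. The windows of Dpp4 and Fap took in the Gcg locus, so summits there are part of these counts and shares. With 2 libraries in each group an exact test cannot give a p below 0.33, and none was run.

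Hormone and carrier genes outside the 10 gave the setting, in lists chosen with earlier results of these data known. Over all sites 3.26% were called higher and 0.846% lower per the authors' deposited table. Among 16 other islet peptide hormone genes, 5 had 17 sites, of which 6 were higher after Paupar KD and 0 lower per the authors' deposited table. These lay at Gcg (3 sites), Npy, Iapp and Cartpt, the last encoding the CART peptide, at an intergenic site 176.7 kb from its start with 1.37 and 4.85 (FDR 0.0104) per the authors' deposited table. The other 11 had no site. Gut hormone genes, a list of 10 that includes Pyy and Ghrl, had 0 of 18 sites called, and their strongest, 4.04 kb upstream of Guca2a, had 6.26 and 5.65 (FDR 0.395) per the authors' deposited table. Delta-cell regulators, a list of 10 that includes Hhex, had 0 of 22 sites called, with 7.51 and 6.94 (FDR 0.203) at the promoter of Bhlhe41 as the strongest per the authors' deposited table. The Bhlhe41 site had a summit in 1 of 2 Paupar KD libraries and in neither control KD library. The binding partners and relatives of Ttr, Rbp4 and Gc had 0 of 13 sites called, led by Rbp7, an intracellular retinol-binding protein gene, with 6.98 and 6.54 (FDR 0.460) per the authors' deposited table.

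Receptors for these hormones had 0 of 21 sites called over 10 of 16 genes, and the strongest, 4.72 kb from the start of the glucagon receptor gene Gcgr, had 7.41 and 6.82 (FDR 0.288) per the authors' deposited table. Where 3.26% of all sites were called higher and 0.846% lower, a list around Dpp4 was read last. The genes related to Dpp4 or sharing its class of substrate had 2 of 38 sites higher and 1 lower per the authors' deposited table. Higher were intron sites of Dpp10 (1.58 and 5.35, FDR 0.000542) and Dpp6 (2.02 and 5.30, FDR 0.00373), which encode enzymatically inactive relatives that associate with potassium channels, per the authors' deposited table. Lower was the promoter of Dpp9, a cytosolic dipeptidyl peptidase gene, with 7.02 and 5.70 (log2 change -1.32, FDR 0.00643) per the authors' deposited table. The Dpp10 and Dpp6 sites had summits in both Paupar KD replicates but neither control KD replicate.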

How the data were processed

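Pax6 ChIP was sequenced in 4 libraries of alphaTC1 cells, 2 per group, and the 4 input libraries were not used here. The submitters' processing notes name Bowtie2, MACS2, DiffBind and ChIPseeker, with no versions, and the build mm10. The normalization and the test applied to the sites are not given in the sources read here. The concentrations and fold deposited by the authors were read as log2 values, a base the column names do not state. The fold equalled the difference of the group concentrations within 0.01 at every site, and its sign was turned. The p-value and FDR are the authors', copied and not refitted, since only group means were deposited. The −log10 FDR column deposited by the authors was not needed. Each list of summits was called per library, as its deposited names show, with the score read as −log10 of the q-value (lowest 2.0 to 2.01). A line of the table naming no site was left out. With the read depth unknown, counting intervals could not be given.

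Summits were matched within 250 bp of a site's middle, and neighbours taken within 100 kb of the RefSeq 5′ end (GRCm38.p6; for Fap, of either end). Of the sites, 99.97% had an assigned gene whose Entrez ID was in RefSeq. For 99.89% of these, the authors' assigned transcript, not the site itself, overlapped the limits of that gene there. Every listed gene was named with all its sites. Other genes were named if they were assigned a site in the 100 kb windows, or from 6 context lists if a site was called or, without a call, was the strongest. Members and lists were chosen with earlier results of these data known. Matching, adjustment and motif search were tested on simulated data (Python 3.11.15, pandas 2.3.3, numpy 2.4.6).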

Additional observations from a re-analysis of the deposited data

How the results depend on the processing

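The count of sites called was 0 higher and 0 lower at FDR limits of 0.01, 0.05 and 0.1, without sites at the floor, and without sites lacking a summit. It was 2 higher at an unadjusted p below 0.05, and 3 higher and 1 lower when any site within 100 kb of a listed gene was counted, all 3 at Gcg and the 1 at Mpp3. The median log2 change of 0.46 was 0.38 over sites with a summit, 0.30 without sites at the floor, 0.49 when centred on all sites and 0.58 when centred on the quartile of mean concentration. That last centring turned the Pyy site from 0.05 to -0.15; no other site turned. A match within 100 bp left 1 site with a summit in control KD replicate 2, that at Ttr. The Hhex site lost its summit in that library, which lay 228 bp from the middle. A score of at least 5 left 3 sites with summits in Paupar KD only. Lists of equal length left 3 sites with a summit in each Paupar KD library, 0 in Paupar KD only, 1 in control KD only and 3 in both groups. Leaving out 1 library at a time gave 2 to 8 sites in Paupar KD only (8 without control KD replicate 1, 2 without Paupar KD replicate 2), 0 to 1 in control KD only and 2 to 5 in both. No paired analysis was possible because the concentrations were deposited as group means, with no value per library. Summit counts, which exist per library, came from no test. The cause of these shifts was not tested, and unknown depth limits what an absent summit can show.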

Other observations

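Around the listed genes, 12 summits had no site of the table within 250 bp. The one with the highest score, 46.1 in Paupar KD replicate 1, lay 61.1 kb upstream of Dpp4 and 494 bp from the nearest site, one assigned to Gcg. Control KD replicates 1 and 2 had summits close by, 60.8 and 60.7 kb upstream of Dpp4, with scores of 5.9 and 6.0. On either side of the Mpp2 promoter site, 13.4 kb from the Ppy 5′ end, there were 3 such summits. That of control KD replicate 1 (score 5.1) lay 12.8 kb from Ppy. Those of Paupar KD replicates 1 and 2 (5.1 and 11.6) lay farther off, at 13.8 and 13.7 kb. The Mpp2 site itself had no summit within 250 bp. The Sst site likewise had its nearest summit at 284 bp. A count of sites with summit support therefore depends at these places on the match distance.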
